A study of Mus musculus with 12 samples.

Results

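R-loops were mapped with S9.6, an antibody against RNA-DNA hybrids, in mouse liver and in HEPA1-6, a mouse hepatoma cell line. The regions described here are the peaks of the list labelled liver that carried a strand, lay on chromosomes 1 to 14 or 16 to 19, and were chosen by their lack of overlap with any HEPA1-6 peak, at 1 bp or more. They numbered 1198 of 10767 stranded liver peaks on these chromosomes, or 11.1% (95% Wilson interval 10.5 to 11.7%). The share was 24.0% when overlap with HEPA1-6 peaks of the same strand alone counted, and 20.2% with the HEPA1-6 list shortened to the length of the liver list. The other 9569 stranded liver peaks overlapped a HEPA1-6 peak and are the comparison throughout. Both kinds are called liver-only and overlapping peaks below. The complete lists held 14908 liver and 28717 HEPA1-6 peaks.

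The labels describe 12 libraries in 6 groups of 2: immunoprecipitate, immunoprecipitate with RNase H1, and input DNA, each from HEPA1-6 and from liver. All groups are labelled genotype WT, treatment none and cell type Hepatocyte. The mice were C57/Bl6 (JAX), and age, sex and number of animals are not in the labels. HEPA1-6 was grown as a culture of dividing tumour cells, whereas liver holds several cell types. Per the peak names, 1 merged immunoprecipitate was set against input for each source, so there was 1 list per source and no spread between replicates. No test between the lists is given. All intervals reflect counting error alone, and peaks near each other may share a source. Sequencing depth is unknown, the HEPA1-6 list is the longer one, and a missing HEPA1-6 peak does not show that an R-loop was missing. The RNase H1 libraries were not analysed here, so the share of these peaks that the enzyme would remove is not known.

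An R-loop forms when RNA anneals to its template DNA strand and leaves the opposite DNA strand unpaired. The RNA is usually the transcript being made at that place, so R-loops follow transcription, and they are well known at the starts and the ends of active genes. Hepatocytes, the main cell type of the liver, secrete plasma proteins, make bile acids and clear drugs. A peak is no measure of expression, and no cell type was called from it.

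Promoter sequences are shown first, because a short motif, noticed when these sequences were read, was more frequent under liver-only peaks than under overlapping ones. RefSeq promoter windows of assembly GRCm38.p6 were used, each running from 250 bases before to 50 bases after a gene start. The 4 windows below lay under the highest-scoring liver-only peaks that covered a promoter. The score is the authors' own value of a peak. Capitals mark CCAAT, or ATTGG, which is the same motif on the opposite strand. Each sequence runs 5′ to 3′ on the strand of its gene.
Zbtb3: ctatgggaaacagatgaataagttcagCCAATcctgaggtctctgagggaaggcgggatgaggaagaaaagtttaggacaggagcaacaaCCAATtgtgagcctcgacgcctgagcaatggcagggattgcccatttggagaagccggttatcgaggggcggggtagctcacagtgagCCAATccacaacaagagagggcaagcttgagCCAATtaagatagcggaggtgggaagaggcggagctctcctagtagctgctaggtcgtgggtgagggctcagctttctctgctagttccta
Paip2b: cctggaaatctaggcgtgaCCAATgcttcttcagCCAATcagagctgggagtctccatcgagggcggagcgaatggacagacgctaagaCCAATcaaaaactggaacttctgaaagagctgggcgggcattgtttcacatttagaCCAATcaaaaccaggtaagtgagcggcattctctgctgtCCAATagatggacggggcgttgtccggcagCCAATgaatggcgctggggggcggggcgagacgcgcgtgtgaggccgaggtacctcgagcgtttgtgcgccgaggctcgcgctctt
Fer: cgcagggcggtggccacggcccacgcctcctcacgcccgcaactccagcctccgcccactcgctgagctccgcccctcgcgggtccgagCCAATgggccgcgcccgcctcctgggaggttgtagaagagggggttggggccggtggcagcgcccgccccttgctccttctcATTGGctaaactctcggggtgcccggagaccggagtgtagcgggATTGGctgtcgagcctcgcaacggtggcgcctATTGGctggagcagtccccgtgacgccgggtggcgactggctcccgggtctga
Cchcr1: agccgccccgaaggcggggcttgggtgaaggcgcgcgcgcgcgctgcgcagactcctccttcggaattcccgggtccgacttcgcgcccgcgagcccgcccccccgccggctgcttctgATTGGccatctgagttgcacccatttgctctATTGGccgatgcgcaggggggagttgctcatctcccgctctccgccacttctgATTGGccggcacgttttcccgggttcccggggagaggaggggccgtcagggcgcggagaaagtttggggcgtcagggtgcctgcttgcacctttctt

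For contrast, 2 windows lay whole under the highest-scoring overlapping peak at a promoter, chr6:117906040-117909855, which had a score of 483 and a width of 3816 bp.
Hnrnpf: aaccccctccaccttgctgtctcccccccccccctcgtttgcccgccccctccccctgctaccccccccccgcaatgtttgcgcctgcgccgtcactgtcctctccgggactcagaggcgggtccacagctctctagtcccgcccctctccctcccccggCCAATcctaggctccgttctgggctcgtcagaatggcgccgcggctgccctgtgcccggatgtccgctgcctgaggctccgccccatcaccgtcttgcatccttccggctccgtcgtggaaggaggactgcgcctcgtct
4933440N22Rik: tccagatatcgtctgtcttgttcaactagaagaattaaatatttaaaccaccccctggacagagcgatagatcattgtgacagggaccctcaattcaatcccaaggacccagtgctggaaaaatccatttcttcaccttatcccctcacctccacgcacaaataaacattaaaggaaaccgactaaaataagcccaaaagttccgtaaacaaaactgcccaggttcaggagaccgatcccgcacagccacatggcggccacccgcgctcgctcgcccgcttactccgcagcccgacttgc

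Zbtb3, which encodes a zinc finger protein with a BTB domain, held 4 copies of the motif in its window at chr19:8802263-8802562 (plus strand). Its liver-only peak, with a score of 97 and a width of 290 bp, covered 154 of the 300 bases and 2 of the copies. Paip2b, a regulator of the poly(A)-binding protein, held 6 copies at chr6:83831692-83831991 (minus strand), all under a peak with a score of 65. The window of Fer, a tyrosine kinase gene, held 4 copies at chr17:63863731-63864030 (plus strand), and a peak with a score of 64 covered 235 bases and 3 of the copies. Cchcr1 had 3 copies at chr17:35516799-35517098 (plus strand), all among the 236 bases under a peak with a score of 60. Among the overlapping windows, that of Hnrnpf, which encodes an RNA-binding protein, held 1 copy at chr6:117906532-117906831 (plus strand). The window of 4933440N22Rik at chr6:117908156-117908455 (minus strand) held 0.

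The difference in the motif extended beyond the printed windows. In all, 182 promoter windows of 167 genes lay under a liver-only peak, and 128 of them (70.3%, 63.3 to 76.5%) held CCAAT on either strand. Windows that a peak touched by 1 base or more were counted whole, so a copy can lie beside the peak. Of 2864 windows under an overlapping peak alone, 1125 (39.3%, 37.5 to 41.1%) did. Among all 30460 windows on these chromosomes the share was 37.3%. It was 28.9% (26.9 to 30.9%) among 2017 windows under a HEPA1-6 peak with no stranded liver peak, and 37.6% among 25397 windows under none of these peaks. At least 2 copies were present in 47.8% (40.7 to 55.0%) of windows under liver-only peaks and 18.4% (17.1 to 19.9%) of those under overlapping peaks. At least 3 copies were present in 25.8% and 7.65%. Both orientations were frequent under liver-only peaks, with 43.4% of windows holding the motif in the direction of the gene and 46.2% in the opposite one. CCAAT is a classical promoter element that lies upstream of many gene starts, and the factor NF-Y is known to bind it. A match is a description of the sequence, and binding was not measured.

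**Figure D1:**
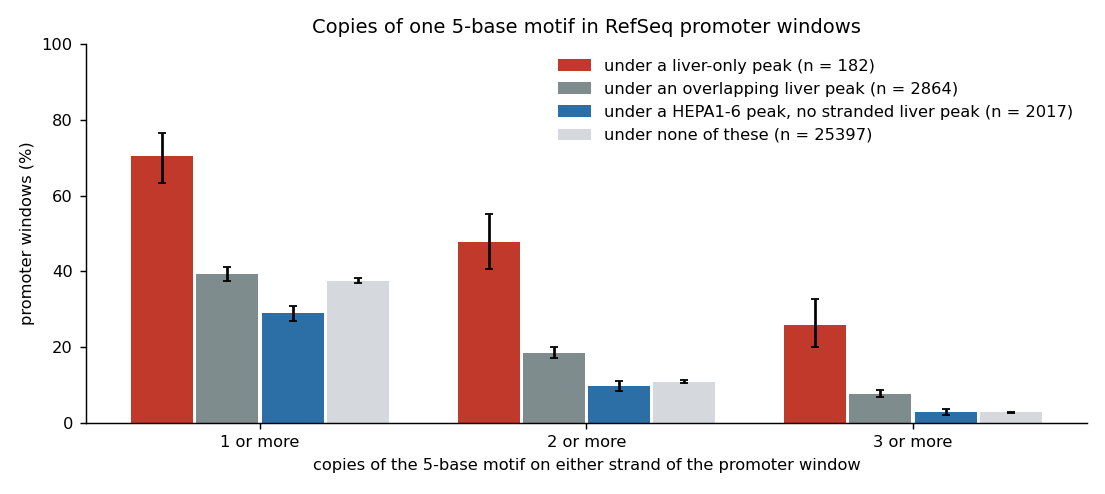
Share of RefSeq promoter windows (%, y axis) with 1, 2 or 3 or more copies (x axis) of CCAAT on either strand, for windows under a liver-only peak, under an overlapping liver peak, under a HEPA1-6 peak without a stranded liver peak, and under none of these. Bars are shares and error bars 95% Wilson intervals. The windows under liver-only peaks are highest in each class, from 70.3% with 1 or more copies to 25.8% with 3 or more.

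This motif was chosen after sequences had been seen. The TATA box (TATAAA), the GC box (GGGCGG) and a run of guanines (GGGG) were searched first, and CCAAT was added when it was noticed by eye in the 4 printed windows, which are among the 182. Without the printed windows, the shares were 69.7% (124 of 178) and 39.3%. All 512 distinct words of 5 bases (a word and its reverse complement counted once) were then ranked by the difference in share between liver-only and overlapping windows. CCAAT ranked 1, with a difference of 31.0 percentage points, and CAATC, which overlaps it by 4 letters in the sequence CCAATC, ranked 2 with 23.7. Among 2080 words of 6 bases, GCCAAT ranked 1, in 52.7% and 22.3% of windows, and CCAATC ranked 2, in 50% and 23.7%. At the other end of the list of 5 bases stood GCGCC, in 56.6% and 73.3% of windows. With 1 window per gene, CCAAT was present in 70.7% (118 of 167) and 39.7% (953 of 2400). Some neighbouring genes that start back to back shared a stretch of promoter and a peak, such as Hmmr with Nudcd2 and Mrps12 with Sars2, so windows are not independent.

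Base composition, width and score moved with the groups, and the motif was compared within classes of each. Median GC content was 60.3% under liver-only peaks, 64.0% under overlapping peaks and 53.0% over all windows. Within windows of 50 to under 60% GC, 75.7% (64.8 to 84.0%) of 74 liver-only windows and 46.7% (43.2 to 50.3%) of 764 overlapping ones held CCAAT. From 60 to under 70% GC, the shares were 73.7% (62.8 to 82.3%) of 76 and 41.3% (38.5 to 44.1%) of 1199. The classes below 50% GC (13 liver-only windows) and from 70% GC (19 windows) gave 53.8% against 42.1% and 47.4% against 27.1%, with intervals that reached 29.1 to 76.8% and 27.3 to 68.3%. Among windows under peaks narrower than 500 bp, 72.2% (61.4 to 80.8%) of 79 liver-only and 43.0% (36.9 to 49.4%) of 237 overlapping ones held it. For peaks of 500 to under 1000 bp the shares were 74.1% and 43.3%, and for 1000 to under 3000 bp they were 71.1% and 39.4%. Peaks of 3000 bp or more turned the order, with 1 of 7 liver-only windows (14.3%, 2.57 to 51.3%) against 36.4% of 854. By score, the liver-only share ran from 62.1% at scores of 10 to under 15 to 76.9% at 30 or more, and the overlapping share from 36.8% to 40.2%.

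The copies lay mostly upstream of the start in both groups. Under liver-only peaks, 43.4 copies per 100 windows began between 100 and 50 bases before the start and 39.6 in the 50 bases just before it. In the 50 bases after it the number was 4.95. Overlapping windows had 21.0, 13.4 and 4.96 copies in the same positions. The downstream positions were thus alike, and the difference lay upstream. The other motifs differed less. TATAAA, the TATA box, was present in 3.85% of liver-only, 6.49% of overlapping and 13.6% of all windows. GGGCGG, the GC box, was present in 69.8%, 70.9% and 36.0%. GGGG, a run of guanines that can overlap a GC box, was present in 99.5%, 96.8% and 86.8%.

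Genes with several copies had varied functions. Besides Paip2b, the windows of Arrdc4 held 6 copies, under a peak with a score of 28. Those with 5 copies included Slc25a42, a mitochondrial carrier, Atp5g1, a subunit of the mitochondrial ATP synthase, Golph3l, a Golgi protein, and Hmmr, which acts in mitotic spindle assembly. H2az2, which encodes a variant of histone H2A, held 4 copies under a peak with a score of 26. These genes are named for their copy number, which was known when they were picked.

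The liver-only peaks were narrow and had low scores within the liver list. Their median width was 520.5 bp (483 to 559 bp), and the quartiles were 287 and 846.75 bp. Overlapping peaks had a median of 1022 bp (1003 to 1041 bp). The widest liver-only peak spanned 9738 bp and the widest overlapping one 59575 bp. Together the liver-only peaks covered 0.837 Mb and the overlapping peaks 15.539 Mb. The median score was 18 against 23, where the whole liver list had 22 and its lowest score was 10. Of peaks under 500 bp, 20.3% (18.9 to 21.8%) were liver-only, and of those of 1000 bp or more 3.64% (3.16 to 4.19%) were. A wide peak has more bases with which to touch a HEPA1-6 peak, so width bears on the choice of these regions and its difference is a description.

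**Figure D2:**
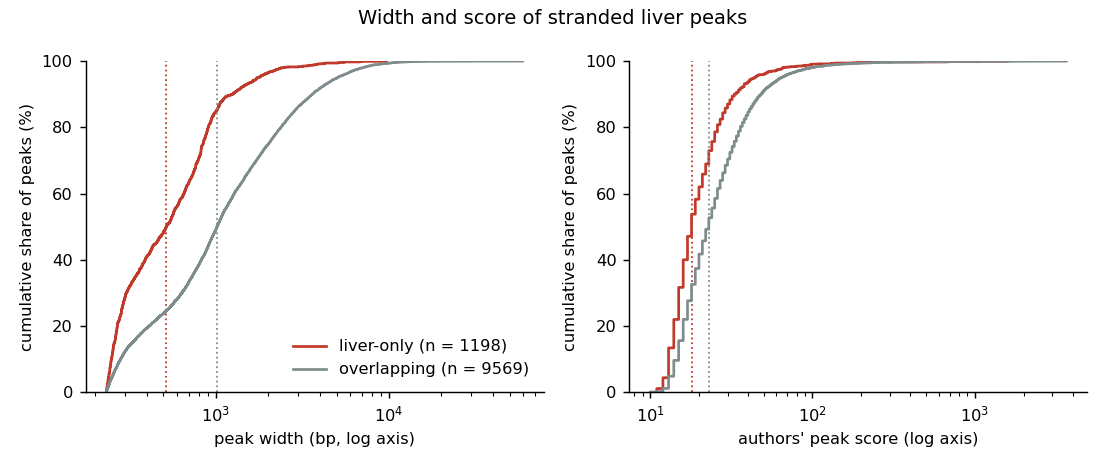
Cumulative share of stranded liver peaks (%, y axes) by width in bp (left, log axis) and by the authors' score (right, log axis), for 1198 liver-only and 9569 overlapping peaks. Dotted lines mark the medians, 520.5 and 1022 bp for width and 18 and 23 for score; the liver-only curves lie to the left.

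A small group combined a high score with a narrow width. Of the liver-only peaks, 49 (4.09%) had a score of 50 or more, and their median width was 362 bp. The 892 overlapping peaks at such scores had a median width of 2079.5 bp. Widths under 400 bp made up 57.1% (43.3 to 69.98%) of the former and 11.9% (9.92 to 14.2%) of the latter. The highest liver-only score was 1598, at chr13:4778411-4778708 (GRCm38), a peak of 298 bp outside any RefSeq gene. It was rank 16 of the whole liver list, and the nearest HEPA1-6 peak was 538.98 kb away. The second, with a score of 1055, lay at chr5:36630446-36630768 in D5Ertd579e and Gm32584. The third, with 683, lay in Cpeb4, a gene for a protein that binds the polyadenylation element of mRNAs, at chr11:31922602-31922854.

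The other peaks of the top 10 scored from 130 to 249. They lay in Nxpe4 (249), Inpp4b (213), a phosphoinositide phosphatase gene, and Prkag2 (190), which encodes a regulatory subunit of the energy sensor AMPK. Pdgfrl (177), Chchd6 (133), which encodes a protein of the mitochondrial inner membrane, and Ptprn2 (130), a receptor-type phosphatase gene of secretory granules, followed. A further one, with 139, lay outside genes at chr1:195241608-195241845. All 10 were between 238 and 514 bp wide, and the narrowest peak of the liver list had 234 bp. None of the 10 was within 1 kb of a gene start, and their nearest HEPA1-6 peaks were 22.38 to 538.98 kb away. The 5 widest were of another kind. Gm6370 (9738 bp, score 25) and Gm6408 (6843 bp, score 29) are neighbouring genes on chromosome 5, and each was covered at both its start and its end. Gm5989 and Gm8950 shared one of 6976 bp, chr5:145758974-145764525 outside genes had one of 5552 bp, and Ndst3, a heparan sulfate enzyme gene, had one of 5473 bp.

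The distance from a liver-only peak to the nearest HEPA1-6 peak varied widely. The rule removes peaks that touch a HEPA1-6 peak, and gaps of random places were not computed for comparison. The median gap was 34505 bp (27033 to 42256 bp), and the gaps ran from 15 to 2541067 bp. Only 46 (3.84%) had a gap under 1 kb, while 362 (30.2%) had 1 to 10 kb, 375 (31.3%) 10 to 100 kb, 376 (31.4%) 100 kb to 1 Mb, and 39 (3.26%) more. Within 1 Mb, liver-only peaks had a median of 30 HEPA1-6 peaks around them and overlapping peaks 56. Other liver peaks were sparser too, with medians of 16 and 25. At the boundary of the rule, the liver-only peak in Prpf19, a splicing factor gene, ended 15 bp from a HEPA1-6 peak and had a score of 13. That in Bptf, a chromatin remodelling gene, had a gap of 98 bp and a score of 11. A peak outside genes at chr16:4214501-4214923 and the peaks in Klhl42 and Hexdc had gaps of 134, 221 and 222 bp. On the other side, the overlapping peaks in Poldip2, Tollip and Wdr61 shared 1 base with a HEPA1-6 peak, and those in Irs1, which encodes the insulin receptor substrate, and Agap1 shared 4.

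**Figure D3:**
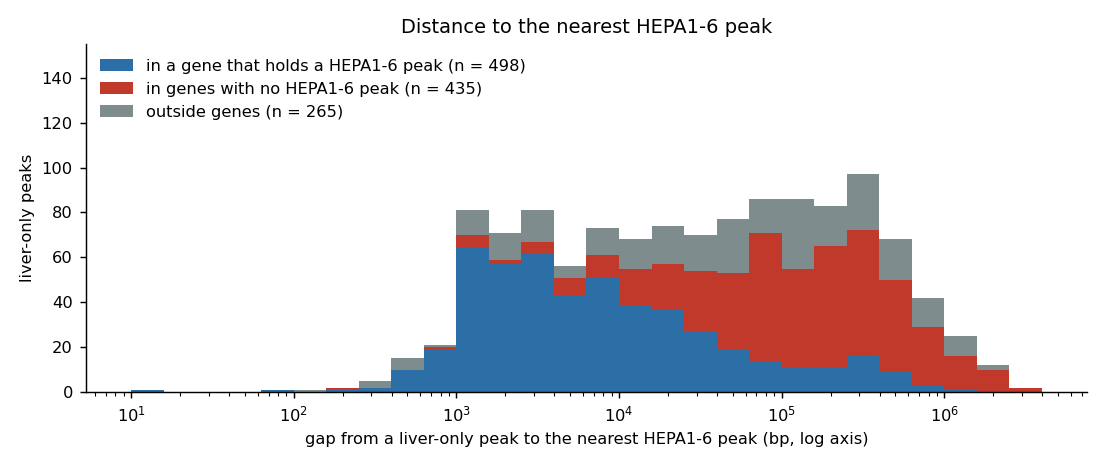
Number of liver-only peaks (y axis) by gap to the nearest HEPA1-6 peak in bp (x axis, log), stacked by whether the peak lies in a gene that also holds a HEPA1-6 peak (498), in genes without one (435) or outside genes (265). The shortest gaps are mostly in genes with a HEPA1-6 peak, and the gaps of 100 kb and more mostly in genes without one.

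The share of liver-only peaks varied between chromosomes. It was lowest on chromosome 2 (66 of 960, 6.88%, 5.44 to 8.65%) and chromosome 11 (83 of 1192, 6.96%, 5.65 to 8.55%). The highest shares were on chromosome 12 (33 of 163, 20.2%, 14.8 to 27.1%) and chromosome 14 (26 of 138, 18.8%, 13.2 to 26.2%). Those were the chromosomes with the fewest HEPA1-6 peaks, 469 and 443, whereas chromosomes 2 and 11 had 2374 and 2818. Other chromosomes did not follow this order, as chromosome 1 had 2427 HEPA1-6 peaks and a share of 12.7%, and chromosome 16 had 586 and 11.3%. Of the 33 liver-only peaks on chromosome 12, 12 lay in the immunoglobulin heavy chain locus Igh. The share of chromosome 12 thus rests in part on 1 locus.

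A smaller share of liver-only than of overlapping peaks lay in genes. Of the liver-only peaks, 933 (77.9%, 75.4 to 80.1%) overlapped a RefSeq gene, against 8876 (92.8%, 92.2 to 93.3%) of the overlapping ones. The order was the same in each width class, with 77.4% against 87.5% below 500 bp, 77.6% against 91.3% from 500 to under 1000 bp, and 80.0% against 95.9% above. It was also the same in each of 4 score classes. Liver-only peaks outside genes numbered 265 (22.1%, 19.9 to 24.6%). The leading gene type under a genic liver-only peak was protein-coding in 85.9% (83.5 to 87.9%), lncRNA in 8.79% (7.14 to 10.8%) and pseudogene in 3.75% (2.71 to 5.17%). Overlapping peaks gave 96.7%, 2.48% and 0.687%. Exons, introns and UTRs were not divided, since the gene table gave gene boundaries alone. All these peaks were chosen to carry a strand, which bears on their share in genes. With strandless liver peaks added, 46.9% of 2194 liver-only peaks lay in genes.

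Over peaks of all widths, gene ends separated the groups more than gene starts. Within 1 kb of a gene end lay 48 liver-only peaks (4.01%, 3.04 to 5.27%) and 1774 overlapping ones (18.5%, 17.8 to 19.3%). Within 1 kb of a start lay 253 liver-only peaks (21.1%, 18.9 to 23.5%) and 2679 overlapping ones (28%, 27.1 to 28.9%). The intervals of the start shares overlapped below 500 bp (21.9%, 18.8 to 25.5%, and 20.03%, 18.4 to 21.7%) and from 500 to under 1000 bp (19.1% and 19.3%). At 1000 bp or more they were 23.2% (17.7 to 29.8%) and 35.9% (34.6 to 37.3%). The end shares were not divided by width, so starts and ends cannot be ranked at like widths. Starts and ends were known for 55.2% of genes alone. Along genes cut into 5 equal parts from 5′ to 3′, the middles of 596 liver-only peaks fell by 39.9, 16.6, 17.8, 15.3 and 10.4%. Those of 5738 overlapping peaks fell by 32.3, 13.9, 13.1, 16.1 and 24.6%. The part at the 3′ end thus held 10.4% (8.20 to 13.1%) of the former and 24.6% (23.5 to 25.7%) of the latter. The median gene length was 76.4 kb for these liver-only peaks and 31.7 kb for the overlapping ones. The strand of the peak was the strand of its gene in 616 of 690 liver-only peaks with genes of 1 known strand (89.3%, 86.7 to 91.4%), close to the 88.9% (88.1 to 89.6%) of overlapping peaks. How the authors gave a peak its strand is not given in the sources used here. If strands were taken from gene annotation, this agreement would be built in, which was not tested.

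Genic liver-only peaks were divided by whether their genes had HEPA1-6 peaks elsewhere. For 435 of 933 (46.6%, 43.4 to 49.8%) the genes under the peak held no HEPA1-6 peak, and their median gap was 134.8 kb. With HEPA1-6 peaks of the same strand alone in the selection, this share was 19.4%. By gene rather than by peak, 43.3% of all protein-coding genes held a HEPA1-6 peak in the body or 1 kb flank. Most protein-coding genes thus held none. For 277 of the 933 liver-only peaks (29.7%) the genes under the peak held both a HEPA1-6 peak and an overlapping liver peak, with a median gap of 3.86 kb. The other 221 (23.7%) lay in genes with a HEPA1-6 peak but no overlapping liver peak, and 34.4% of these were within 1 kb of a gene start. The share at a start was 17.7% and 17.9% in the other two classes.

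Counted by gene, 833 of 19889 protein-coding genes held a liver-only peak in the body or 1 kb to either side, which is 4.19%. An overlapping liver peak was held by 5440 (27.4%) and a HEPA1-6 peak by 8619 (43.3%). Of the 833 genes, 335 (40.2%, 36.9 to 43.6%) held no HEPA1-6 peak, and 727 (87.3%) held exactly 1 liver-only peak. The genes were long. Median lengths were 57.43 kb for the 833 genes, 76.71 kb for the 335 without a HEPA1-6 peak and 17.45 kb for all protein-coding genes. Over 4 equal classes of genes from the shortest to the longest, the share with a liver-only peak was 0.925, 2.45, 3.92 and 9.45%. For overlapping peaks it was 17.95, 31.4, 31.3 and 28.8%, with no rise beyond the second class. A longer gene offers more bases to a peak.

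Among genes without a HEPA1-6 peak, those with the highest scores were mostly long genes with a single narrow peak. The 15 highest had scores from 64 to 249 and a median length of 181.1 kb, and 12 of their top peaks were under 500 bp wide. In all 14 with a known strand the peak lay on the strand of the gene, which may be built in by how strands were given. After Nxpe4, Prkag2, Pdgfrl, Chchd6 and Ptprn2, which are given above, came Rundc3b (98), Zbtb3 (97), Elavl4 (96) and Naalad2 (91). Elavl4, which encodes a neuronal RNA-binding protein, had a second liver-only peak with a score of 17. Akap9 (89), a scaffold gene of the centrosome and Golgi, and Tmprss15 (86), which encodes the intestinal protease enteropeptidase, followed. The last were Lrrtm4 (68), a synaptic adhesion gene, Amph (66), the gene of amphiphysin, Htr1f (65), a serotonin receptor gene, and Fer (64). Several of these genes are best known from other organs, and Zbtb3, at 2.37 kb, was the shortest.

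Of the genes with several liver-only peaks, many were long or belonged to gene families. Counted in the gene body alone, 31 genes had 3 or more, of which 27 were protein-coding, 10 were longer than 300 kb, 8 were Ugt1a genes and 11 held no HEPA1-6 peak. Tcf7l2, which encodes a transcription factor of the Wnt pathway, held 5 liver-only peaks with scores from 13 to 33, beside 10 overlapping peaks and 22 HEPA1-6 peaks. The liver-only peaks thus lay between peaks that both sources had. Sox5 held 5 (scores 11 to 18), Astn2 4 (12 to 41), Ulk4 4 (21 to 32), Stard13 4 (15 to 22) and Mroh2a 4 (13 to 29). With 3 peaks each came Gna12, Iqgap2, Inpp4b, Gpam, Mad1l1, Cntnap2, Lingo2 and Dnah7c. Gpam, which encodes the enzyme of the first step of triglyceride synthesis, had scores from 12 to 16 and also held 10 overlapping peaks. Lingo2 and Dnah7c held neither an overlapping nor a HEPA1-6 peak.

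The Ugt1a genes shared a single set of peaks. These genes encode glucuronosyltransferases that conjugate bilirubin and drugs, each has a first exon of its own, and all share the 3′ exons. The peaks lay at chr1:88210323-88211651 (score 23), chr1:88212970-88215166 (score 16) and chr1:88216823-88218646 (score 24), all on the plus strand, which is that of the genes. They are 3 peaks counted under 8 overlapping genes, Ugt1a2, Ugt1a5, Ugt1a6a, Ugt1a6b, Ugt1a7c, Ugt1a8, Ugt1a9 and Ugt1a10, and under Ugt1a1, the bilirubin enzyme. The first lay just upstream of Ugt1a1, with its middle at -0.97 kb from the start, and the other two inside it. No HEPA1-6 peak lay in Ugt1a1 or within 1 kb of it, and the same held for Ugt1a2, Ugt1a5 and Ugt1a6a. The longer genes Ugt1a6b, Ugt1a7c, Ugt1a8, Ugt1a9 and Ugt1a10 each held 1 HEPA1-6 peak in the body. The third liver-only peak was 5.1 kb from the nearest HEPA1-6 peak.

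Some liver-only peaks stood in rows. A stretch is taken here as consecutive liver-only peaks with no HEPA1-6 peak between them, and 14 stretches had 5 or more. They held 127 liver-only peaks (10.6%, 8.98 to 12.5%), while 759 peaks (63.4%) stood alone. The stretches were 82.3 to 2089.7 kb long, their highest score was 66, and 7 of the 14 had all peaks on 1 strand. Of their peaks, 62.2% (53.5 to 70.2%) overlapped a gene and 9.45% (5.49 to 15.8%) were within 1 kb of a start. Many spanned genes or pseudogenes of one family, though those at Daw1 and at Sox5 did not. Similarity between copies was not measured, and where copies are alike the authors' placement of reads among them is uncertain. Whether HEPA1-6 has the same copies of these regions as the mice was not examined.

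The row with the most peaks, 18 at chr13:65427393-66314029, spanned vomeronasal receptor pseudogenes such as Vmn2r-ps96. The second, of 14 peaks at chr1:83115446-83220345, spanned Ccl20, a chemokine gene, and Daw1, an assembly factor gene of ciliary dynein that held 10 of them. Rows of 9 and 13 peaks on chromosome 10, from chr10:22155789 to chr10:22424862, spanned Raet1e, H60b and Raet1d. These genes encode ligands of NKG2D, a receptor of natural killer cells. The immunoglobulin heavy chain locus Igh, which B cells rearrange, held 12 peaks between chr12:113718111 and chr12:115807825 with scores from 14 to 40, 10 of them on the minus strand. In the row of 10 from Gm6408 to Gm3415, at chr5:146478331-146560656, peaks covered 37.6% of the bases.

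Smaller rows lay at other families. A row of 9 minus-strand peaks spanned the lipase genes Lipo1 and Lipo2 on chromosome 19, and rows of 8 and 5 the Obox homeobox genes and pseudogenes on chromosome 7. Gm38510 and C130026I21Rik on chromosome 1 and a region of chromosome 6 that reaches into Sox5 had 7 each. A row of 5 spanned Cyp2c29 and Cyp2c39, cytochrome P450 genes of drug metabolism, at chr19:39259139-39355344, where 4 of the peaks lay in the pseudogene Cyp2c53-ps. Rows of 5 also spanned Chil3 and Chil4, chitinase-like genes, and the Klra genes, which encode natural killer cell receptors. Within the 14 stretches lay 32 strandless liver peaks, which the selection does not count.

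**Figure D4:**
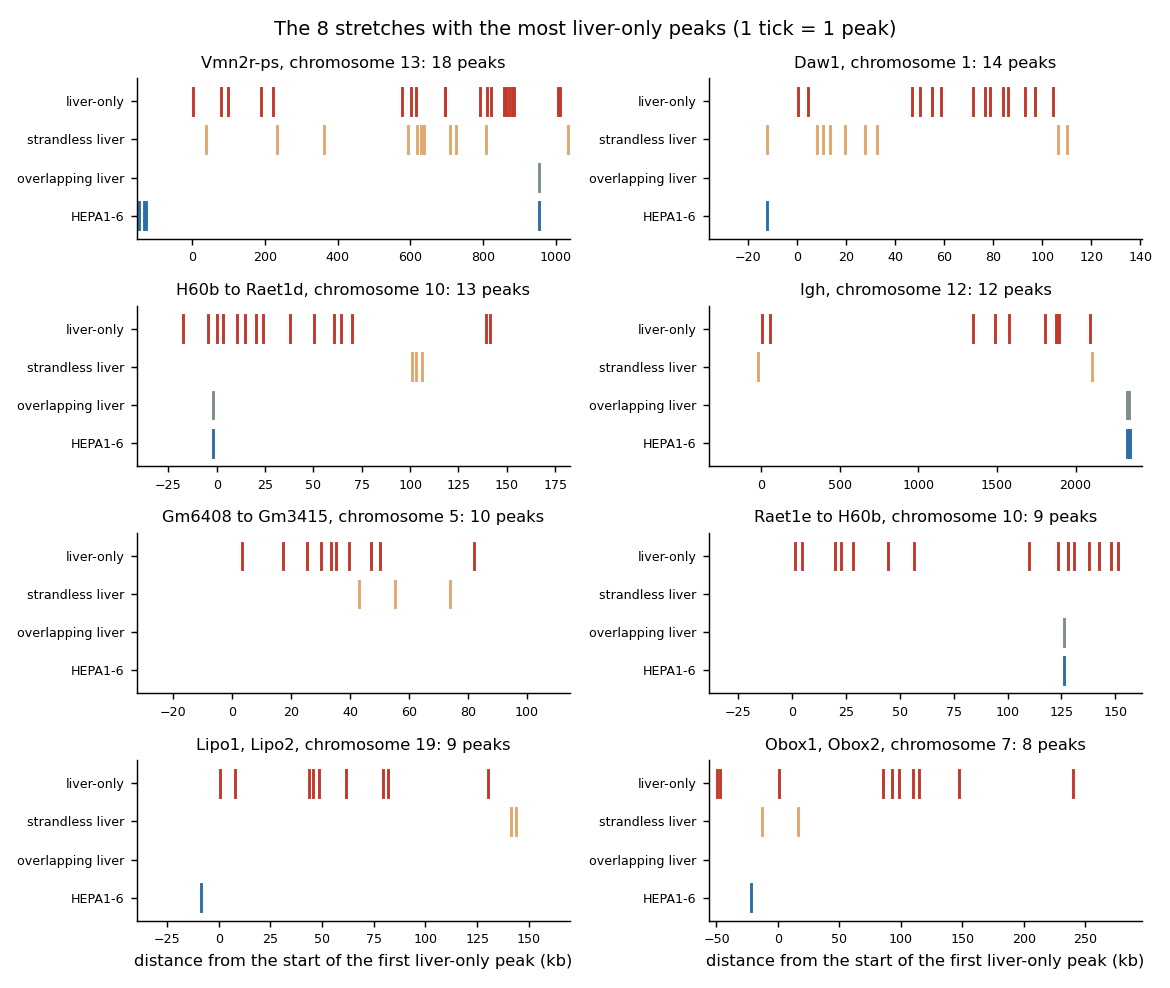
Positions of peaks in the 8 stretches with the most liver-only peaks, as distance in kb from the first peak of the stretch (x axis); each tick is 1 peak, in rows for liver-only, strandless liver, overlapping liver and HEPA1-6 peaks. Windows extend past the stretch, so some also show liver-only peaks of the next row; no HEPA1-6 tick lies inside a stretch, and the numbers of peaks run from 18 at Vmn2r-ps to 8 at Obox1 and Obox2.

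Genes of liver function and of other roles were then looked up in 11 lists of genes. Few listed genes held a liver-only peak, beside 4.19% of all protein-coding genes. Of 47 plasma protein genes, 0 held one, which allows a share of up to 7.56%, and of 29 carrier and receptor genes 0 held one (up to 11.7%). Of 50 metabolic enzyme genes, 3 did (6.00%, 2.06 to 16.2%), of 45 drug metabolism genes 4 did (8.89%, 3.51 to 20.7%), and of 36 hepatocyte transcription factor genes 2 did (5.56%, 1.54 to 18.1%). Of 23 clock genes, 3 did (13.0%, 4.54 to 32.1%). Among 46 markers of other liver cells, 63 ribosomal protein genes and 52 developmental factor genes, 0 did. Of 43 cell cycle genes and of 39 immediate early genes, 1 each did. The lists were chosen with earlier results known, and none was tested against 4.19%. The clock share, the highest of the 11, rests on 3 genes. Median gene length was 28.61 kb in the clock list and 17.45 kb over all protein-coding genes, and longer genes held liver-only peaks more often. Over the 11 lists it ran from 3.18 kb for ribosomal protein genes to 56.02 kb for carrier and receptor genes. The shares of the lists are thus not set at like lengths.

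As a check on the label, the stranded liver list as a whole held no peak at 69.9% of all protein-coding genes. It held none at 78.7% of plasma protein genes, 79.3% of carrier and receptor genes and 75.6% of drug metabolism genes, and at 62% of metabolic enzyme genes and 41.7% of hepatocyte transcription factor genes. Hepatocyte lists thus lay on both sides of the share of all genes. None was held at 91.3% of markers of other liver cells, 32.6% of cell cycle genes and 0% of ribosomal protein genes. A peak is not a level of RNA, and these shares settle no cell type.

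**Figure D5:**
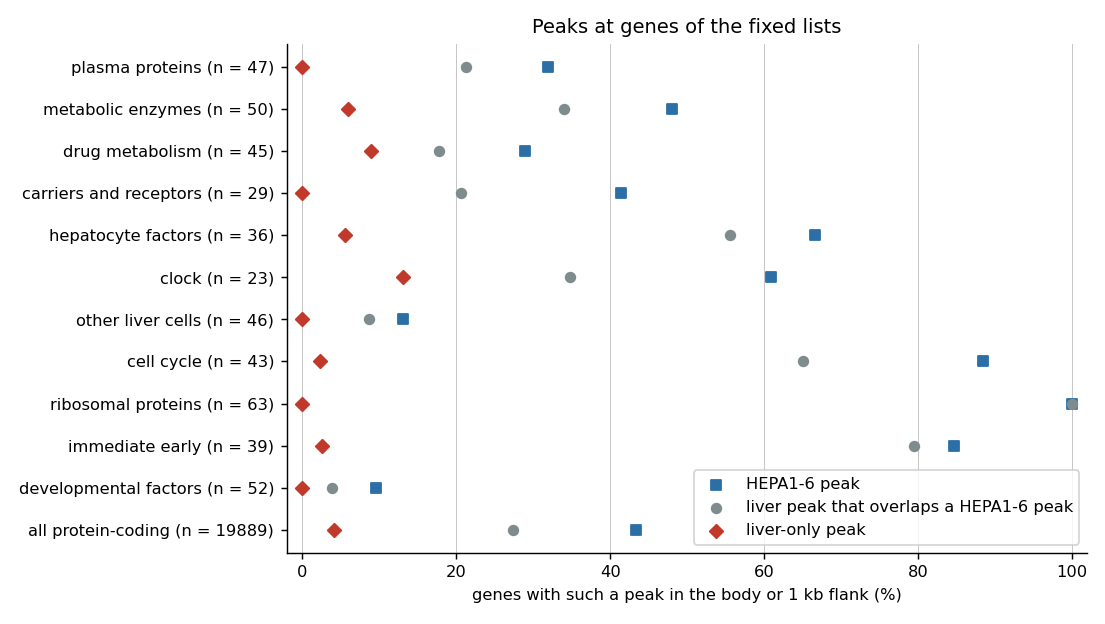
Share of genes (%, x axis) in each list (y axis, with its number of genes) that hold a liver-only peak, an overlapping liver peak or a HEPA1-6 peak in the body or within 1 kb. Liver-only shares lie between 0 and 13.0% in every list, and the 4.19% of all protein-coding genes is on the bottom line.

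Among the metabolic enzymes, Fah, the last enzyme of tyrosine breakdown, had the highest score. Its liver-only peak at chr7:84605220-84605505 scored 44, was centred 0.58 kb inside the gene on the gene's strand, and the gene held no HEPA1-6 peak. Oat, which encodes ornithine aminotransferase, had one with a score of 18 near its end, 19.1 kb from the start, and an overlapping peak at its start. Acaca, the gene of the enzyme that commits acetyl-CoA to fatty acid synthesis, had one with a score of 13 at 49.32 kb. In drug metabolism, besides Ugt1a1, there was Por, whose product passes electrons to cytochromes P450. Its liver-only peak, with a score of 13 at 47.3 kb, lay between HEPA1-6 peaks at 44.22 and 52.34 kb. Cyp26a1, the retinoic acid hydroxylase gene, had one of score 12 centred at -1.09 kb from its start and inside its neighbour Gm32342, and Fmo1, a monooxygenase gene, one of score 14 at its edge. Thrb, a thyroid hormone receptor gene, had one of score 15 deep in the gene at 132.2 kb and no HEPA1-6 peak.

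Clock genes gave 3 loci. Arntl, which encodes the clock activator BMAL1, had liver-only peaks at chr7:113206045-113206410 (score 50) and chr7:113209485-113209755 (score 12), 27.76 and 31.15 kb from its start. HEPA1-6 peaks in the same gene began further along, with middles from 45.85 to 84.96 kb. Per1, a clock repressor gene, had a liver-only peak at chr11:69094668-69095353 with a score of 46. Its middle was at -0.1 kb from the boundary of the gene, while the HEPA1-6 peaks were centred 8.43 and 14.79 kb inside. Dbp, a clock output gene, had one with a score of 18 at 2.96 kb, beside an overlapping peak near its end. The liver-only peaks of Arntl, Per1 and Dbp lay upstream of every HEPA1-6 peak of the same gene. This was not particular to clock genes. It also held for Acaca, Cenpf and Jun of the other lists, though not for Oat, Por and Tcf7l2.

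The other listed genes were Jun and Cenpf. Jun, an immediate early transcription factor gene, had a liver-only peak with a score of 56 at chr4:95053072-95053472, on the strand of Jun and centred at -1.05 kb from its start. The peak lay outside the body of Jun and inside Junos, a lncRNA gene on the opposite strand. Its body was covered by an overlapping liver peak (score 42) and a HEPA1-6 peak, and the gap to the latter was 675 bp. Cenpf, a kinetochore gene, had one with a score of 16 centred 0.09 kb from its start, on the strand opposite to the gene. No miRNA hairpin of the RefSeq table (0 of 884) lay under a liver-only peak, while 85 lay under overlapping ones. These counts are not scaled to the bases covered, 0.837 Mb by liver-only and 15.539 Mb by overlapping peaks.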

How the data were processed

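Per the labels' protocols, DNA was immunoprecipitated with S9.6, sonicated to a fragment peak of 300 bp, and amplified with 4 PCR cycles for input and 10 for immunoprecipitates. The submitters' processing notes name mm10 and CASAVA 1.8.2, cutadapt, Bowtie2, SAMtools, bedtools and MACS2, without role or order. The deposited lists give each peak's position, strand and a score. The authors' score is a whole number of unstated scale, so it was used within the liver list only. Peaks on chromosome 15 and the sex chromosomes, and the 1285 strandless liver peaks on the chromosomes used, were left out.

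Overlaps (1 bp or more), shares, medians and motif counts were computed with Python 3.11.15, pandas 2.3.3, numpy 2.4.6, scipy 1.17.1 and matplotlib 3.10.9, and checked against bedtools 2.31.1 on simulated peaks (0 of 10767 differed). Shares have 95% Wilson intervals and medians exact order-statistic intervals. Genes came from the RefSeq table of GRCm38 (45267 genes on these chromosomes). It holds no strand, so strands and gene starts came from the RefSeq promoter table. This covered 24987 of the genes (55.2%), including 16035 of 19889 protein-coding ones. Starts and ends of other genes were not counted.

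The members, gene lists and tests were chosen with earlier results of these data known. Genes were named by rule: the 10 highest-scoring and 5 widest peaks, 5 on each side of the overlap boundary, genes with 3 or more peaks, the 15 highest-scoring genes without a HEPA1-6 peak, list genes, and promoters under the top peaks. The motif searches, the stretches and the classes of the motif were added after the data were seen. Genes of the stretches and those with several copies of the motif were named after their values were seen. Alternatives changed the overlap, strand, score, chromosomes, list length and gene windows.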

Additional observations from a re-analysis of the deposited data

How the results depend on the processing

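Of 61 alternative values over 7 results and 12 settings, 30 moved by less than the counting interval and 31 by more; none has a test, and the causes were not tested. Counting HEPA1-6 peaks of the same strand alone raised the liver-only share to 24.0%, with 86.7% in genes, 30.2% at a start, a median width of 792 bp, a median score of 21, 19.4% in genes without a HEPA1-6 peak and 74.7% on the strand of the gene. Shortening the HEPA1-6 list to the length of the liver list gave a share of 20.2%, 83.1% in genes, 574 bp and a score of 17. Counting liver peaks with under 50% of their bases under HEPA1-6 peaks gave 13.6%, 80.4% in genes, 23.6% at a start, 602 bp and 37.0% in genes without a HEPA1-6 peak. Scores at or above the median of the liver list gave 7.30%, 26.7% at a start, 457 bp and a score of 28. Adding chromosome 15 and X gave 13.9%, 15.4% at a start and 588 bp. Adding strandless peaks gave 18.2%, 46.9% in genes and 11.9% at a start. Using the middle of a peak gave 74.3% in genes and 18.4% at a start, protein-coding genes alone 66.9% in genes, and a 2 kb window 26.8% at a start. Leaving out the stretches, an alternative chosen after seeing the data, gave a share of 10.1%. Depth limits all of these shares and is unknown. No paired analysis was possible because each source has 1 pooled list, and no replicate could be left out for the same reason. The CCAAT shares were not among the 7 results and were not recomputed under these settings.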
